A study of Danio rerio with 6 samples.

Results

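Transcripts of 10 red cell genes were followed through the regenerating ventricular apex of zebrafish with and without cardiac tbx20 overexpression. The genes were hbaa1, hbba1, alas2, slc4a1a, cahz, epb41b, hemgn, tfr1a, nt5c2l1 and smim1. They were chosen by name with the results of these libraries known, smim1 for its much lower count in tbx20-overexpressing hearts. Their differences between the groups are therefore given as a description, without a test. Where these genes are set beside the limits used for calling, that too is a description. By symbol, 9 of them were found in 10 rows of the deposited table, because hbba1 has a row for each of its gene identifiers, ENSDARG00000089087 and ENSDARG00000097238. Hemgn was found by its identifier, ENSDARG00000096667, which the table lists under a clone name. These 11 rows of 31701 genes all passed the filter on low counts, as did 15686 genes of the table. Smim1 passed with most of its counts in the control group.

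Red cells of fish keep a nucleus and carry RNA through their life in the circulation, so a piece of heart taken with its blood also contributes red cell transcripts. Their main product is haemoglobin, a tetramer of alpha and beta globin chains that bind haem, and haem is made from glycine and succinyl-CoA in a pathway whose first enzyme in red cells is Alas2. Around this core, red cells express an anion exchanger, a spectrin and actin skeleton under the membrane, carbonic anhydrase and receptors that take up iron.

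RNA was sequenced from resected ventricular apices of adult AB strain fish at 7 days post amputation (dpa), all of them kept in doxycycline (DOX) daily from the day before injury. Tbx20-overexpressing fish carried the cmlc2:TetON-3G driver, active in cardiomyocytes, together with the DOX-inducible TRE3G:tbx20 responder. Control fish carried the responder alone. Each group had 3 libraries, and every library was a pool of 6 hearts (replicate 1) or 8 hearts (replicates 2 and 3). The red cells were not perfused out or sorted by any step named in the methods. In such bulk tissue fewer red cells and less RNA per red cell cannot be told apart. The cell type that each transcript came from was not tested either.

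Total counts were 12993988 to 14002211 in tbx20-overexpressing libraries and 13218054 to 17754483 in control libraries. CPM values, counts divided by the library total on a common scale, are given after scaling by the trimmed mean of M-values (TMM), and FPKM values, which also divide by gene length, as the authors gave them. Counts of tbx20 itself were 1864, 287 and 630 in tbx20-overexpressing replicates 1, 2 and 3, against 502, 114 and 354 in control replicates 1, 2 and 3. The tbx20 levels of the groups overlapped, while each tbx20-overexpressing library was above the control library of its own number. Mitochondrially encoded genes held 11.1 to 15.0% of the counts in tbx20-overexpressing libraries and 16.3 to 20.9% in control libraries. Genes were called at an unadjusted p under 0.05 with an absolute log2 fold change above 0.5 in edgeR's quasi-likelihood test, which gave 1385 genes (8.83% of those tested), 513 higher (3.27%) and 872 lower (5.56%) in tbx20-overexpressing hearts. At a Benjamini-Hochberg adjusted p under 0.05 this test called 0 genes, with 1448 at an unadjusted p under 0.05 and a smallest adjusted p of 0.108, while DESeq2 called 239. Replicate numbers paired the libraries, and with the replicate as a block 2213 genes (14.1%) were called, 949 higher (6.05%) and 1264 lower (8.06%), 84 of them at an adjusted p under 0.05. Scaled to total counts instead, 1838 genes were called higher and 258 lower, and the median log2 fold change of all genes moved to 0.38, against 0.035 with TMM.

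The red cell genes other than smim1 varied more among the tbx20-overexpressing pools than between the groups. Without smim1 they held 0.0642, 0.160 and 0.390% of all counts in tbx20-overexpressing replicates 1, 2 and 3, against 0.116, 0.147 and 0.108% in control replicates 1, 2 and 3. The lowest and the highest share thus both belonged to tbx20-overexpressing pools, with the 3 control pools between them. The low end rested on hbba1, which was nearly missing from tbx20-overexpressing replicate 1. Without the hbba1 rows, left out after seeing the data, control replicate 3 was lowest at 0.0581%, beside 0.0630% in tbx20-overexpressing replicate 1. The highest share was still that of tbx20-overexpressing replicate 3, at 0.273%. The mean share was 0.205 ± 0.168% in tbx20-overexpressing hearts and 0.124 ± 0.0204% in control hearts (SD, n = 3 each), a difference of 0.0813 percentage points that is smaller than the SD of the tbx20-overexpressing pools. Without tbx20-overexpressing replicate 3 the difference was -0.0114 percentage points, and without replicate 1 of that group it was 0.152. Summed over the same 10 rows, the level was 629.5, 1487 and 2992 CPM in tbx20-overexpressing hearts and 1264, 1961 and 1071 CPM in control hearts.

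**Figure D1:**
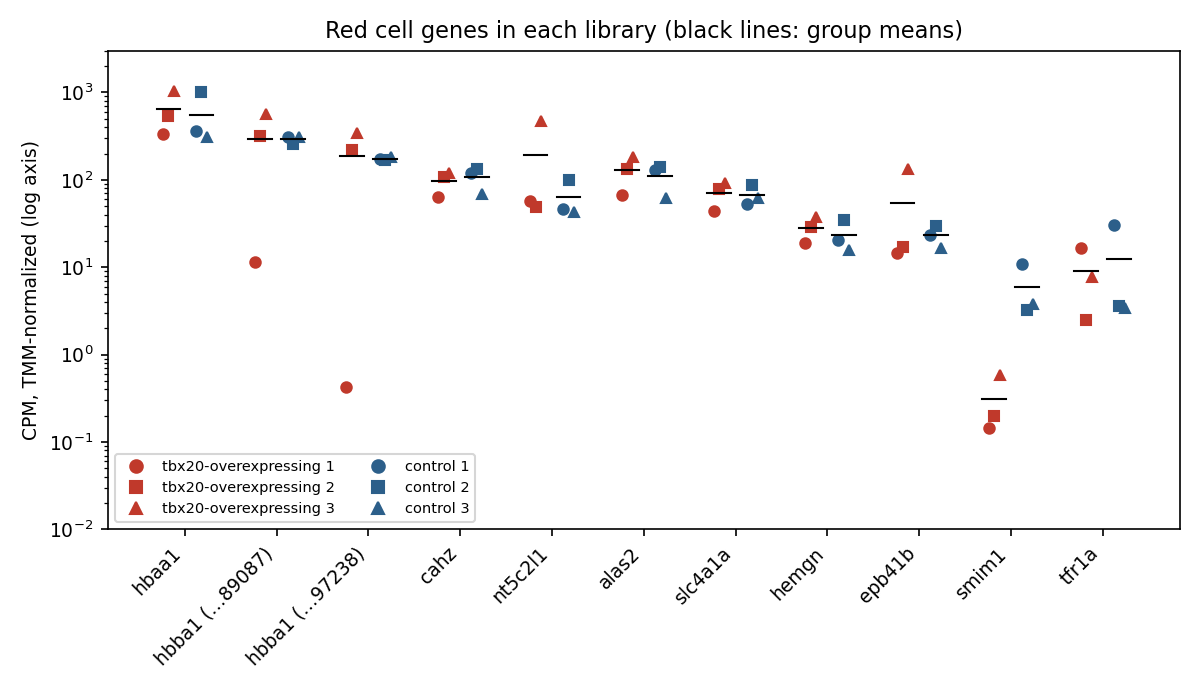
Level of each red cell gene (TMM-normalized CPM, log axis) in tbx20-overexpressing libraries (red, left of each pair) and control libraries (blue, right), with symbols for replicate number and black lines for group means, genes ordered by mean FPKM. The groups overlap for every row except smim1, where tbx20-overexpressing libraries lie at 0.143 to 0.590 CPM and control libraries at 3.24 to 10.87 CPM.

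Of the 10 rows other than smim1, none lay past the limits for calling in either direction, as 8.83% of all genes tested did. So few rows cannot be set apart from that share. Their log2 fold changes ran from -0.47 to 1.60, with 8 above 0 and 2 below it, and a median of 0.16 beside 0.035 for all genes. Under the other count scalings between 7 and 9 of these rows were above 0. With the replicate block 6 were above 0, and the median was 0.11. In that fit the hbba1 rows were at -0.80 and -0.86, epb41b at 0.40 and nt5c2l1 at 0.80. Scaled to total counts the median was 0.61, where that of all genes was 0.38. Leaving out tbx20-overexpressing replicate 3 turned the median to -0.34, with 1 row above 0. Only smim1 had CPM values that did not overlap between the groups, as had 14.7% of all genes tested, and its tbx20-overexpressing values were the lower ones, as for 8.27% of all genes.

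Globin chains were the most abundant transcripts of the set per unit length. Hbaa1, an adult alpha chain, averaged 844 ± 594 FPKM in tbx20-overexpressing hearts and 514 ± 274 FPKM in control hearts (SD, n = 3 each). Its level was 335, 537 and 1048 CPM in tbx20-overexpressing replicates 1, 2 and 3, against 364, 1003 and 307 CPM in control replicates 1, 2 and 3. High hbaa1 pools therefore occurred in both groups, tbx20-overexpressing replicate 3 and control replicate 2, and the log2 fold change was 0.20 (SE 0.54).

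Hbba1, the adult beta chain, was nearly missing from a single pool. Its ENSDARG00000089087 row had 159, 4723 and 9477 counts in tbx20-overexpressing replicates 1, 2 and 3, against 3721, 3456 and 5454 counts in control replicates 1, 2 and 3. Its ENSDARG00000097238 row had 6, 3326 and 5809 counts in tbx20-overexpressing hearts, against 2076, 2223 and 3168 counts in control hearts. In CPM, tbx20-overexpressing replicate 1 lay 22.9-fold and 391-fold below the lowest of the other 5 libraries in these rows, while the other tbx20-overexpressing pools were at or above the control range. The log2 fold changes, 0.01 (SE 0.93) and 0.12 (SE 1.25), average over that contrast within the group. Both rows carry 1 gene symbol and may share reads, and how reads fitting several copies were counted is not given in the sources used here, so the division of counts between them is uncertain.

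The same pool was low in a neighbouring alpha-type gene but not in the others. In the order of genes of the RefSeq assembly GRCz12tu, hbaa2 and hbba2 come before hbaa1 and hbba1, followed by si:ch211-5k11.8, which RefSeq gives the synonym hbaa1.2. Si:ch211-5k11.8, singled out after its values were seen, had 1180, 12391 and 20981 counts in tbx20-overexpressing replicates 1, 2 and 3, against 8979, 8855 and 10437 counts in control replicates 1, 2 and 3. Tbx20-overexpressing replicate 1 was 7.10-fold below the lowest of the other 5 libraries in CPM. By contrast, hbaa1 in that pool was within the range of the other libraries, with 4692 counts.

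Hbaa2 and hbba2, another adult alpha and beta pair, showed no such drop. Hbaa2 had 102, 327 and 1008 counts in tbx20-overexpressing replicates 1, 2 and 3, against 106, 1134 and 350 counts in control replicates 1, 2 and 3. Hbba2 had 259, 794 and 1707 counts in tbx20-overexpressing hearts, against 349, 1306 and 881 counts in control hearts. For both genes replicate 1 was the lowest of each group, the tbx20-overexpressing pool close to the control pool of the same number, and the groups overlapped. For every 100 counts of hbaa1, the rows of hbba1 together had 3.52, 99.4 and 86.1 counts in tbx20-overexpressing replicates 1, 2 and 3, against 131, 42.7 and 161 in control replicates 1, 2 and 3. Summed over the 9 alpha and 8 beta rows of the table, alpha FPKM exceeded beta FPKM 12.6-fold in tbx20-overexpressing replicate 1, 2.48-fold in replicate 2 and 2.45-fold in replicate 3, against 2.43-fold, 3.30-fold and 1.86-fold in control replicates 1, 2 and 3. Of these 17 globin rows, 8 had 3 counts or fewer in every library. Reads of near-identical globin genes may be shared among them.

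**Figure D2:**
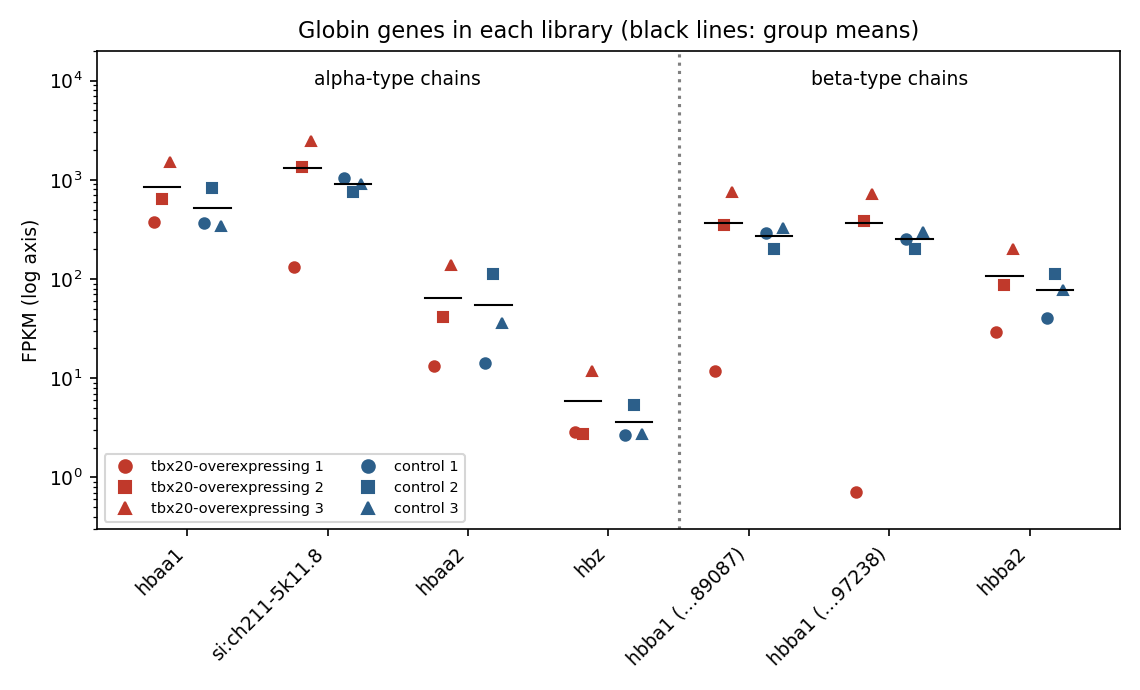
FPKM (log axis) of 4 alpha-type and 3 beta-type globin rows in tbx20-overexpressing libraries (red, left) and control libraries (blue, right), with symbols for replicate number and black lines for group means. Tbx20-overexpressing replicate 1 falls away from the other 5 libraries in both hbba1 rows (11.9 and 0.71 FPKM) and in si:ch211-5k11.8, but not in hbaa1, hbaa2, hbz or hbba2.

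Alas2, the red cell enzyme of the first step of haem synthesis, tracked the summed red cell level. It was at 67.6, 132 and 184 CPM in tbx20-overexpressing replicates 1, 2 and 3, against 129, 140 and 61.6 CPM in control replicates 1, 2 and 3. The groups overlapped, and the log2 fold change was 0.22 (SE 0.41).

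Tfr1a, a transferrin receptor whose loss leaves zebrafish red cells short of iron, went its own way. It was at 16.6, 2.46 and 7.79 CPM in tbx20-overexpressing replicates 1, 2 and 3, against 30.4, 3.62 and 3.38 CPM in control replicates 1, 2 and 3. Replicate 1, the pool of 6 hearts, had the highest level in both groups, which was the case for no other row of the set. The log2 fold change was -0.47 (SE 0.92), and -0.10 (SE 0.39) with the replicate block. Without control replicate 1 it was 1.36, in a setting that keeps tbx20-overexpressing replicate 1. The tested genes with the most similar profile over the 6 libraries were rhobtb2a, klf13 and kif1c, at root mean square distances of 0.19, 0.23 and 0.27 on the log2 scale.

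Among the membrane genes, slc4a1a and epb41b behaved differently. Slc4a1a, the anion exchanger that swaps bicarbonate for chloride and anchors the skeleton, was at 43.8, 77.6 and 91.9 CPM in tbx20-overexpressing replicates 1, 2 and 3, against 52.3, 87.3 and 61.5 CPM in control replicates 1, 2 and 3. It had the narrowest spread of the rows, 1.06 on the log2 scale, and a log2 fold change of 0.09 (SE 0.31). Epb41b, which ties spectrin and actin to the membrane, was at 14.6, 17.0 and 133 CPM in tbx20-overexpressing hearts, against 23.6, 29.8 and 16.7 CPM in control hearts. Its log2 fold change of 1.24 (SE 0.78) came from tbx20-overexpressing replicate 3, which was 4.47-fold above the highest of the other 5 libraries, whereas replicates 1 and 2 of that group were near or under the lowest control library. Without that pool it was -0.57.

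Cahz, the red cell carbonic anhydrase, was at 63.8, 109 and 119 CPM in tbx20-overexpressing replicates 1, 2 and 3, against 120, 134 and 68.2 CPM in control replicates 1, 2 and 3. The groups overlapped, with a log2 fold change of -0.15 (SE 0.32). Nt5c2l1, named as a relative of the cytosolic nucleotidases that remove phosphate from nucleotides, was at 57.5, 48.5 and 469 CPM in tbx20-overexpressing hearts, against 46.5, 100.05 and 42.9 CPM in control hearts. As with epb41b, tbx20-overexpressing replicate 3 stood alone, 4.69-fold above the highest of the other 5 libraries, and the log2 fold change was 1.60 (SE 0.83), or -0.25 without that pool. The closest profiles to nt5c2l1 were those of CR735126.1 and wnk4b, followed by epb41b itself.

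Hemgn, a nuclear protein of red cell precursors, was at 19.1, 28.9 and 37.2 CPM in tbx20-overexpressing replicates 1, 2 and 3, against 20.5, 34.8 and 15.7 CPM in control replicates 1, 2 and 3. As for alas2 and cahz, replicate 3 was the highest and replicate 1 the lowest of the tbx20-overexpressing pools, and replicate 2 was the highest and replicate 3 the lowest of the control pools. The log2 fold change was 0.27 (SE 0.35).

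Each profile was compared with the mean profile of the rows other than itself and smim1, as the root mean square distance over the 6 libraries of log2(CPM + 0.5) after subtraction of the gene's mean. Of all tested genes, 0.198% were nearer to that mean than alas2, 0.950% nearer than cahz, 1.08% nearer than slc4a1a, 1.93% nearer than hbaa1 and 1.94% nearer than hemgn. All 5 of these genes were under their own mean in tbx20-overexpressing replicate 1 and control replicate 3, and above it in tbx20-overexpressing replicate 3 and control replicate 2. Epb41b (14.9%) and nt5c2l1 (76.9%) were farther away, and the hbba1 rows (98.2 and 99.97%), smim1 (98.9%) and tfr1a (99.2%) were farther than nearly all genes. With the median profile of the rows in place of the mean, 99.6% of genes were nearer than smim1, 92.1% nearer than nt5c2l1 and 78.8% nearer than epb41b, so the place of epb41b depends on that choice. In tbx20-overexpressing replicate 1 the mean profile of the rows other than smim1 was at -1.37 and their median at -0.64. The hbba1 rows, at -4.03 and -6.51 there, pulled that mean down. The genes nearest to the mean profile were si:dkey-266f7.5, acbd4, klf1, rhd and tfdp2, and those nearest to the median were not determined. Klf1 is a transcription factor of red cell precursors and rhd a membrane protein of the Rh family. The rows of one cell type share their libraries, and the 6 points share depth and scaling, so these distances are a description. A distance also grows with the range of a gene over the libraries. Smim1 was chosen for its low counts in 1 group, so its large distance follows from that choice and is no separate evidence.

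**Figure D3:**
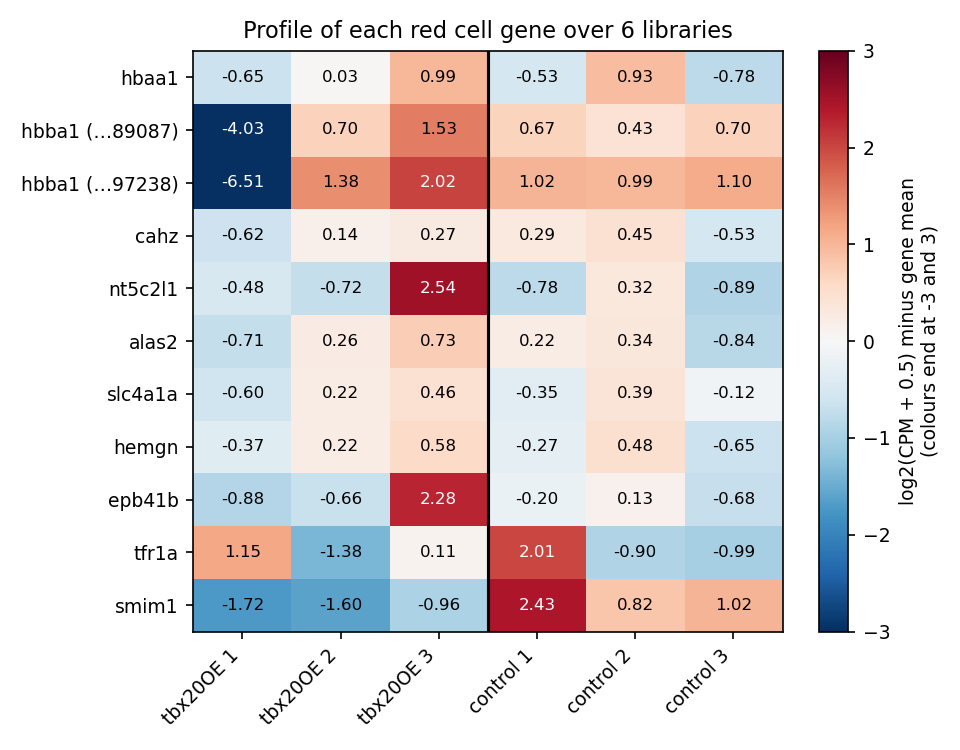
Log2(CPM + 0.5) minus the mean of the gene, for the 11 rows in each library, tbx20-overexpressing libraries left and control libraries right of the black line, with colours from blue (low) to red (high). Hbaa1, cahz, alas2, slc4a1a and hemgn vary together, both hbba1 rows drop in tbx20-overexpressing replicate 1, nt5c2l1 and epb41b peak in tbx20-overexpressing replicate 3, and smim1 separates the groups.

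Smim1 encodes a small single-pass membrane protein that carries the Vel blood group antigen on human red cells. It had 2, 3 and 10 counts in tbx20-overexpressing replicates 1, 2 and 3, against 132, 43 and 66 counts in control replicates 1, 2 and 3. As CPM, with exact 95% Poisson intervals that cover counting error alone, this was 0.143 (0.0173 to 0.516), 0.199 (0.0411 to 0.582) and 0.590 (0.283 to 1.09) in tbx20-overexpressing hearts, against 10.87 (9.10 to 12.9), 3.24 (2.34 to 4.36) and 3.78 (2.93 to 4.81) in control hearts. Every tbx20-overexpressing pool was below every control pool, also by these intervals, and below the control pool of its own number in 3 of 3 pairs. This separation restates the choice of smim1 for its low counts and is no separate evidence.

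The mean smim1 level was 0.311 ± 0.244 CPM in tbx20-overexpressing hearts and 5.96 ± 4.26 CPM in control hearts (SD, n = 3 each), and the log2 fold change was -4.19 (SE 0.71). Pooled over libraries, 15 counts of smim1 in tbx20-overexpressing hearts stood against 241 counts in control hearts, a depth-adjusted ratio of 0.0580 with a counting interval of 0.0319 to 0.0975. That interval leaves out the spread among the libraries of a group. Per unit length, smim1 was at 0.22, 0.32 and 1.16 FPKM in tbx20-overexpressing hearts, against 15.1, 3.65 and 5.75 FPKM in control hearts. In control replicate 1 it was above hemgn, which had 7.72 FPKM there, and in all 3 tbx20-overexpressing libraries it was the lowest of the 11 rows. Of all tested genes, 10 (0.0638%) had a lower log2 fold change. The genes next to it in that order were si:ch211-232d10.2 at -4.43 and atp1b1b at -4.09. With few counts in 1 group the size of the fold change was loosely set, and it ranged from -5.06 without tbx20-overexpressing replicate 3 to -3.42 without control replicate 1.

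Smim1 did not follow the summed level of the other red cell genes between the groups or among the control pools. Within the tbx20-overexpressing group it rose from replicate 1 to 3 like their summed level, on 2, 3 and 10 counts. For every 1000 counts of the other 10 rows there were 0.227, 0.134 and 0.197 counts of smim1 in tbx20-overexpressing replicates 1, 2 and 3, against 8.60, 1.65 and 3.53 counts in control replicates 1, 2 and 3. Tbx20-overexpressing replicate 3 had more red cell transcript than any control pool and still less smim1 than each of them. The ratio was also lower in all 3 tbx20-overexpressing pools when set against hemgn or slc4a1a alone. This does not hold against either hbba1 row alone, since hbba1 itself was nearly missing from tbx20-overexpressing replicate 1. Smim1 was chosen for its low counts in tbx20-overexpressing hearts. Lower ratios to genes that overlap between the groups therefore follow from that choice and are no separate evidence. For every 100 counts of hemgn there were 0.749, 0.688 and 1.59 counts of smim1 in tbx20-overexpressing hearts, against 53.0, 9.31 and 24.2 counts in control hearts. For every 100 counts of slc4a1a there were 0.326, 0.256 and 0.642 in tbx20-overexpressing hearts, against 20.8, 3.71 and 6.15 in control hearts. Control replicate 1, with a red cell share between those of the other control pools, had the highest smim1. Tfr1a was also highest there, at 30.4 CPM against 3.62 and 3.38 CPM in control replicates 2 and 3.

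**Figure D4:**
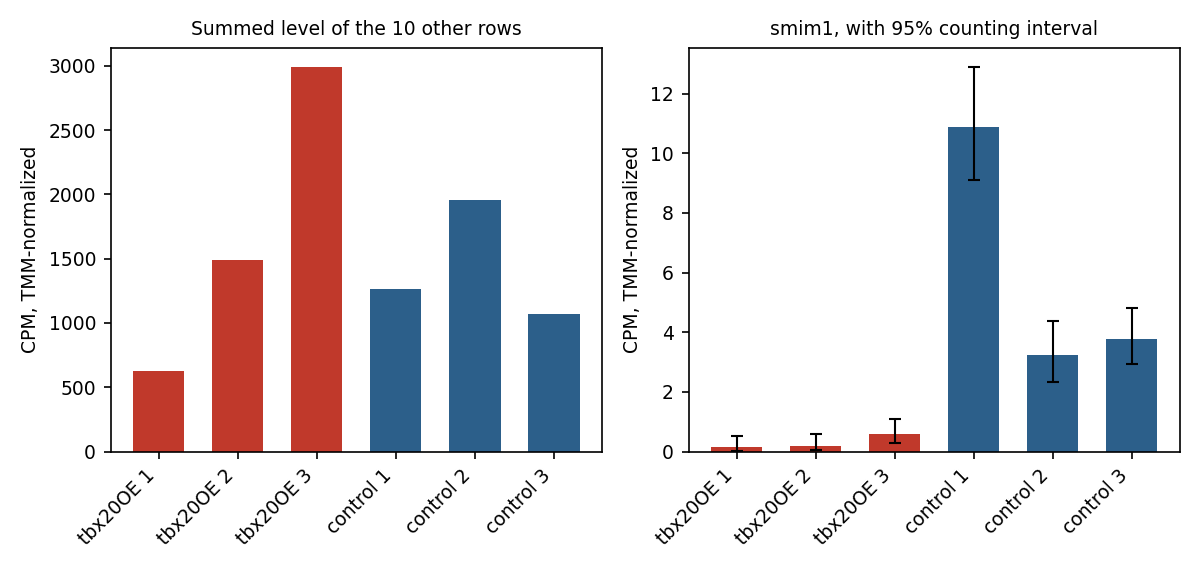
Summed TMM-normalized CPM of the 10 red cell rows other than smim1 (left panel) and CPM of smim1 with exact 95% Poisson intervals (right panel), 1 bar for each library, tbx20-overexpressing in red and control in blue. The summed level overlaps between the groups and is highest in tbx20-overexpressing replicate 3 (2992 CPM), whereas smim1 is at most 0.590 CPM in tbx20-overexpressing libraries and at least 3.24 CPM in control libraries.

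The tested genes whose profile lay nearest to that of smim1 were atp1b1b, CT573383.1, igfn1.1, BX957252.3 and si:dkey-240n22.6. Atp1b1b, a beta subunit of the sodium and potassium pump, had 5, 5 and 8 counts in tbx20-overexpressing replicates 1, 2 and 3, against 184, 32 and 50 counts in control replicates 1, 2 and 3. The genes nearest to smim1 share its low group by the way they were chosen. On the chromosome, 7 of the 10 genes that flank smim1 in GRCz12tu, 5 on each side, were in the table and all 7 were tested. None was called lower, against 5.56% of all genes, and 1 was called higher, against 3.27%. This was si:ch211-147a11.3, with a log2 fold change of 0.65 (SE 0.22, edgeR adjusted p = 0.405). The 7 log2 fold changes ran from -0.32 to 0.71.

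The wider red cell programme was described with 6 lists (globins, haem synthesis, iron handling, membrane, enzymes and erythroid regulators), which hold 76 rows beside the 11 above. Of these, 60 were tested, 0 were called higher and 5 were called lower, against 3.27 and 5.56% of all genes. DESeq2 called 2 higher and 6 lower, beside 514 higher and 938 lower of all 15686 genes. The median log2 fold change was -0.08, beside 0.035 for all genes. With the replicate block 9 were lower, against 8.06% of all genes. This added tfr1b, fth1b, bpgm and a row of ank1a, whose other row was at 0.85 and not called. Scaled to total counts, 4 were higher and 1 lower, beside 1838 higher and 258 lower of all 15686 genes. Of the 5 called lower with TMM, 1 kept its call.

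The 5 genes called lower are those of haem synthesis and of iron and haem handling in mitochondria and endosomes, which many tissues use. So few calls cannot be set apart from the 8.83% of all genes called. At an adjusted p under 0.05, edgeR without the block called 0 of them. Alas1, the enzyme of the first step of haem synthesis outside red cells, was at 320, 255 and 123 CPM in tbx20-overexpressing replicates 1, 2 and 3, against 1007, 1563 and 434 CPM in control replicates 1, 2 and 3. All tbx20-overexpressing pools were below all control pools, with a log2 fold change of -2.11 (SE 0.51, edgeR adjusted p = 0.276, and 0.0299 with the replicate block). Alas1 thus differed while its red cell counterpart alas2 overlapped between the groups, and the difference between the 2 genes was not tested. Glrx5, which serves iron-sulphur cluster assembly in mitochondria, was at 66.0, 66.2 and 59.2 CPM in tbx20-overexpressing hearts, against 96.3, 124 and 97.9 CPM in control hearts. Its log2 fold change was -0.73 (SE 0.19, edgeR adjusted p = 0.291). Its groups did not overlap either, nor did those of slc11a2, tmem14ca and alad. Of all genes tested, 8.27% were lower in tbx20-overexpressing hearts without overlap. Scaled to total counts, glrx5 was at -0.38 and not called, while alas1 was at -1.73 and kept its call. With limma on FPKM glrx5 was at -0.37 and -0.38, again not called, and alas1 at -1.67 and -1.68, again called. Alas1 and glrx5 stayed past the threshold with each library left out, which the remaining genes did not. These were slc11a2, an iron importer, at -0.89 (SE 0.33), tmem14ca, a mitochondrial protein of haem synthesis, at -0.57 (SE 0.22), and alad, the enzyme after Alas1 and Alas2, at -0.55 (SE 0.24). Of 8 cardiomyocyte markers 3 were called lower (cmlc1, actc1a and the troponin I row zgc:101560), against 5.56% of all genes, and 5 were not, among them vmhc at -0.10. The median log2 fold change of the 8 was -0.69, and their summed level was 18674 to 34707 CPM in tbx20-overexpressing hearts and 34733 to 62016 CPM in control hearts. With the replicate block 5 of the 8 were called lower, against 8.06% of all genes. Their part in the difference of the haem and iron genes was not tested.

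Beyond the 11 red cell rows, no gene of the globin, membrane, enzyme and regulator lists was called, beside 8.83% of all genes. The most abundant gene per unit length was fth1a, a ferritin chain, among the iron genes, aqp1a.1, a water channel, among the membrane genes and prdx2, a peroxidase, among the enzymes. Fth1a averaged 774 ± 170 CPM in tbx20-overexpressing hearts and 970 ± 329 CPM in control hearts, with a log2 fold change of -0.33 (SE 0.30). Aqp1a.1 averaged 58.4 ± 27.0 CPM in tbx20-overexpressing hearts and 48.7 ± 22.5 CPM in control hearts, with a log2 fold change of 0.26 (SE 0.43). Prdx2 averaged 144 ± 41.9 CPM in tbx20-overexpressing hearts and 158 ± 56.3 CPM in control hearts, with a log2 fold change of -0.13 (SE 0.31; SD, n = 3 each throughout). The groups overlapped for all 3 genes. FPKM values, which carry no TMM scaling, put the mean of fth1a at 795 ± 140 FPKM in tbx20-overexpressing hearts and 766 ± 141 FPKM in control hearts and that of prdx2 at 159 ± 43.3 FPKM in tbx20-overexpressing hearts and 133 ± 25.9 FPKM in control hearts, so the sign of both small differences depends on the scaling. Of the erythroid regulators 11 beside hemgn were tested, with a median log2 fold change of 0.46 and 0 called. Mych, the most abundant of them per unit length, averaged 70.6 ± 17.6 CPM in tbx20-overexpressing hearts and 56.8 ± 8.56 CPM in control hearts (SD, n = 3 each).

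Of these 11 regulators 7 had their highest CPM in tbx20-overexpressing replicate 3, the pool in which nt5c2l1 and epb41b peaked. The share of all tested genes that peak in that pool was not determined, so this count is a description. Klf17 and mych were highest in tbx20-overexpressing replicate 2, and zfpm1 and bcl11aa in control replicate 1. Of the 7, those with the 3 largest log2 fold changes are given, chosen after their values were seen. Epor, the erythropoietin receptor, had 34, 16 and 315 counts in tbx20-overexpressing replicates 1, 2 and 3, against 48, 18 and 25 counts in control replicates 1, 2 and 3. Gata1a, a transcription factor of red cells and thrombocytes, had 58, 97 and 309 counts in tbx20-overexpressing hearts, against 52, 66 and 68 counts in control hearts. Gfi1b, another regulator of both lineages, had 12, 9 and 88 counts in tbx20-overexpressing hearts, against 8, 7 and 19 counts in control hearts. For these 3 genes tbx20-overexpressing replicate 3 was the highest of the 6 libraries, and replicates 1 and 2 of that group were nearer to the control range. Their log2 fold changes were 1.73 (SE 0.97) for epor, 1.14 (SE 0.52) for gata1a and 1.53 (SE 0.84) for gfi1b, and none was called.

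**Figure D5:**
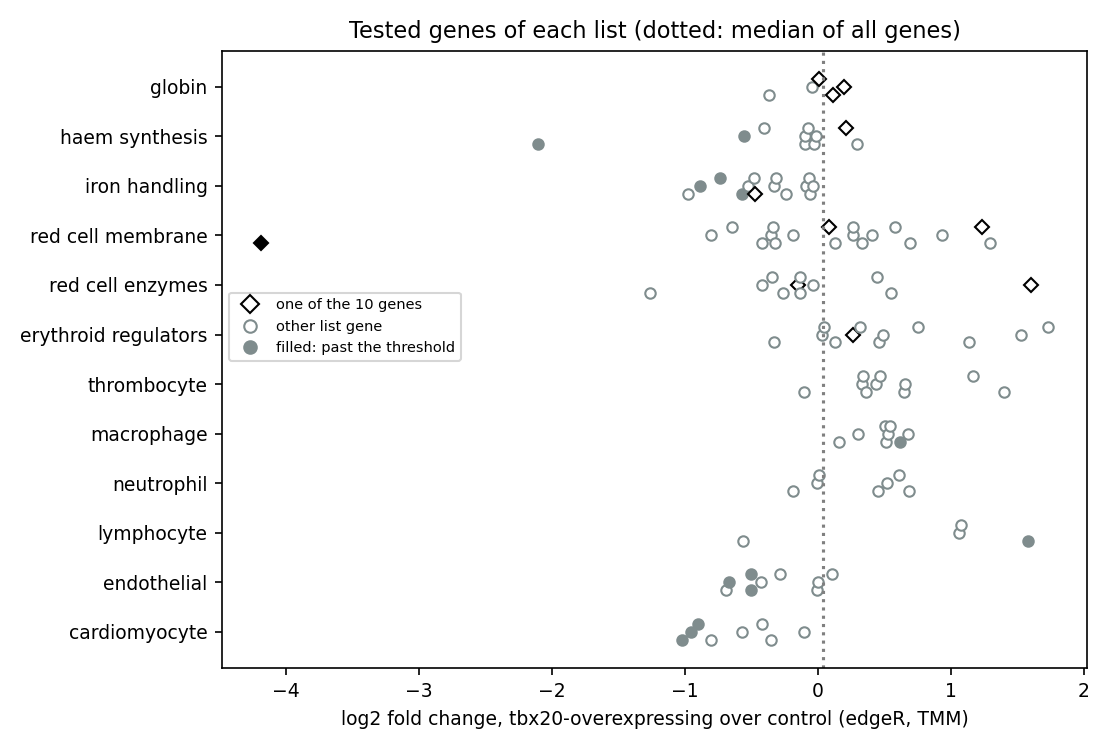
Log2 fold change (tbx20-overexpressing over control, edgeR with TMM) of the tested genes of 6 red cell lists and 6 lists of other cell types, with diamonds for the red cell genes followed here, circles for other genes, filled symbols for genes past the threshold, and a dotted line at the median of all genes (0.035). Smim1 stands apart at -4.19 among the membrane genes, of which the next lowest is at -0.81, and alas1 at -2.11 among haem synthesis genes. Smim1 was chosen for its low counts in tbx20-overexpressing hearts, so its filled symbol is no separate evidence.

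Markers of the other blood and vessel cells in the tissue were read in the same way. The shares of all genes called, 3.27% higher and 5.56% lower, or 6.05 and 8.06% with the replicate block, stand beside each count here. Of 10 thrombocyte markers 0 were called (median log2 fold change 0.45), with summed levels of 434 to 458 CPM in tbx20-overexpressing hearts and 298 to 363 CPM in control hearts. Each of these 10 overlapped between the groups by itself. Thbs1b, the largest part of the sum, averaged 216 CPM in tbx20-overexpressing hearts and 160 CPM in control hearts. With the replicate block 3 of the 10 were called higher. Of 8 macrophage markers spi1b was called higher (median 0.52), and 4 were with the replicate block. Of 7 neutrophil markers 0 were called, and mmp9 was called higher with the block. Of 4 tested lymphocyte markers cd4-1 was called higher. Of 9 endothelial markers cdh5, egfl7 and pecam1 were called lower (median -0.42), joined by flt1 with the block. In FPKM, which carry no TMM scaling, the means of these first 3 were lower by less. Cdh5, egfl7 and pecam1 averaged 34.5, 47.2 and 12.4 FPKM in tbx20-overexpressing hearts, against 38.7, 59.9 and 13.9 FPKM in control hearts. Unlike the thrombocyte sum, the summed levels of the macrophage, neutrophil, lymphocyte and endothelial markers overlapped between the groups. The most abundant marker of each of these lists per unit length was thbs1b, c1qc, lyz, cd79a and aqp8a.1 for thrombocytes, macrophages, neutrophils, lymphocytes and endothelium, none of them called without the block and cd79a not tested.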

How the data were processed

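Poly(A) RNA of 6 pools of ventricular apices, 3 tbx20-overexpressing and 3 control, was sequenced on an Illumina HiSeq. Per the submitters' processing notes, reads were trimmed with Trimmomatic 0.30 and aligned with HISAT2 2.0.1 to GRCz10. The counting tool, the handling of reads that fit several genes and the use of strand are not given in the sources used here. The authors deposited raw counts per gene and FPKM values, and all 190206 FPKM values were recomputed from the counts, gene lengths and library totals (tolerance 0.0051). The gene ontology columns were not used.

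Counts were filtered (filterByExpr), scaled by TMM and fitted with edgeR 4.0.16 in R 4.3.3, and the groups were compared with its two-sided quasi-likelihood F test with Benjamini-Hochberg adjustment. Genes were called past 0.5 in absolute log2 fold change with an unadjusted p under 0.05. These are the limits in the study's Results, which do not say whether p was adjusted. Its Methods name DESeq and a limit of 0.05 on the Benjamini-Hochberg adjusted p, so counts at that limit are also given. Standard errors (SE) were derived from the fold change and its F statistic. Profile distances used log2(CPM + 0.5). The study describes the replicates as independent, each a pool of hearts, and libraries of a group were not duplicates (chi-square per degree of freedom 44.9 to 79.4). Replicate numbers paired the libraries: deviations from the group means correlated across genes at 0.474, 0.419 and 0.511 between libraries of the same number, and at most -0.138 between unlike numbers. Deviations from a group mean cancel over its libraries. Negative values between unlike numbers are therefore forced on average by the positive ones and are no separate evidence of pairing.

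The genes followed and the gene lists were chosen with earlier results of these data known. Named were these genes, tbx20, the called and the most abundant genes of each list, 5 neighbours on each side of smim1 and the 5 nearest profiles; other genes are stated to be chosen after their values were seen. Of 154 list symbols 147 were matched, 6 by gene ID. RefSeq names and gene order came from GRCz12tu, another assembly than that of the files, so no coordinates are given.

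Alternatives were RLE and total-count scaling, TMM without globin and red cell genes, no filter, at least 10 counts in every library, DESeq2 1.42.0, limma 3.58.1 on log2 FPKM with a pseudocount of 1 or 0.1, a replicate block, shares of nuclear counts and of summed FPKM, and each library left out. Leaving out the hbba1 rows was chosen after seeing the data. The scripts were tested on simulated data.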

Additional observations from a re-analysis of the deposited data

How the results depend on the processing

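The number of genes called was 1385, and it was 2096 with total-count scaling and 2213 with the replicate block. Leaving out 1 library gave 1097 to 1568. Of the genes in the red cell lists 5 of 60 tested were called, beside 8.83% of all genes. It was 11 of 72 tested with no filter (7.78% of all genes), 8 with DESeq2 (9.26%) and 9 with the replicate block (14.1%). Limma called 2 on log2(FPKM + 1) (11.2% of all genes) and 2 on log2(FPKM + 0.1) (12.7%). With 1 library left out 3 to 11 were called. The extremes were 3 without tbx20-overexpressing replicate 3 (7.04% of all genes) or control replicate 2 (6.76%), and 11 without tbx20-overexpressing replicate 1 (9.76%). At an adjusted p under 0.05, DESeq2 called 239 genes and the replicate block 84, where edgeR without the block called 0.

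The log2 fold change of smim1, -4.19, was -2.39 with limma on log2(FPKM + 1), a scale that understates changes of low genes, and -5.06 to -3.42 with 1 library left out. It was below 0 in every setting that tested it. At a minimum of 10 counts in every library smim1 and an hbba1 row were not tested. The median log2 fold change of the other rows was 0.16, and -0.34 to 0.51 with 1 library left out, the lowest without tbx20-overexpressing replicate 3. It was 0.61 with total-count scaling and 0.45 and 0.47 with limma on FPKM, where the medians of all genes were 0.38, 0.27 and 0.37. The difference in red cell share, 0.0813 percentage points, was -0.0114 to 0.152 with 1 library left out. Without the hbba1 rows, an alternative chosen after seeing the data, these values were 0.21 and 0.0644. Leaving out tbx20-overexpressing replicate 1 brought epb41b, nt5c2l1 and an hbba1 row past the threshold, which 9.76% of all genes passed in that setting. That setting keeps tbx20-overexpressing replicate 3, the pool in which epb41b and nt5c2l1 peaked. Nt5c2l1 also passed the threshold with total-count scaling (13.4% of all genes), with no filter (7.78%) and without tbx20-overexpressing replicate 2 (9.11%). With the replicate block, as without it, smim1 alone of the 11 red cell rows lay past the threshold, and it was chosen for its low counts. With 2 to 10 counts of smim1 in the tbx20-overexpressing libraries, depth limits the size of its fold change.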
